A study of Rattus norvegicus with 8 samples.

Results

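Oxt, Avp, Pmch, Pomc, Hcrt, Trh, Crh, Gal, Cartpt and Agrp encode peptides that nerve cells of the hypothalamus make in large amounts. Here they were followed in rat medial thalamus, the tissue that borders the hypothalamus from above. The array carried 11 probes for these 10 genes, out of 41012 distinct probes that named 18332 genes, and they took 74 of the 43379 spots that were not controls on each array. All 11 were well above background on enough arrays to be kept, among 27154 kept probes. The genes were chosen because their levels on these same arrays were known to differ widely, so the levels by array are a description and carry no test.

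The tissue came from conscious male Sprague-Dawley rats, 4 that received tracheal occlusions (brief blocks of the airway) and 4 surgical controls that received none. Sessions were held on each of 10 days, an occlusion spanned 3 to 10 breaths with recovery of about 30 s, and the rats were killed by anesthetic overdose within 10 min of the last trial. No age, transgene or drug is named in the labels. Each rat gave 1 µg of total RNA, which was labelled with the dye Cy3 and put on an Agilent array of the whole rat genome. The arrays lay on 2 slides of 4, with 2 arrays per group on each: slide 1 held occlusion 1 and 3 and control 1 and 4, and slide 2 held the others.

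Levels are log2 processed signal minus the array's 75th percentile, so 0 is a bright but ordinary probe and each unit is a doubling. They compare arrays for the same probe and cannot rank different probes. The share of spots well above background ran from 65% to 71.6% over the arrays, that of saturated spots from 1.05% to 1.55%, and the 75th percentile from 1439 to 2216 signal units. The slides separated on the first principal component, which held 37.7% of the variance. All 13 thalamic relay marker genes on the array passed the filter. So did all 10 oligodendrocyte and all 8 astrocyte markers, so passing it does not identify the tissue. The mean level of the relay markers ran from -0.77 on control 3 to 0.82 on occlusion 1. Whole dissected tissue was measured, in which fewer cells of a type and less RNA per cell cannot be told apart.

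Hypothalamic peptides are made as larger precursors, which proprotein convertases cut inside secretory granules. Oxytocin and vasopressin come from large neurons of the paraventricular and supraoptic nuclei, which send axons to the posterior pituitary, while Crh and Trh neurons act on the anterior pituitary. Melanin-concentrating hormone (Pmch) and orexin (Hcrt) mark the lateral hypothalamus, and Pomc and Agrp mark opposed feeding neurons of the arcuate nucleus. Pomc is also the precursor of corticotropin in the anterior pituitary, so its RNA is no sign of the arcuate nucleus alone.

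Oxt and Avp are neighbouring genes with related coding sequences, so the probes are shown to let a reader judge whether a shared pattern could be 1 RNA read by both. The Oxt probe lies at chr3:118100336-118100479 (rn3, plus strand) and the 10-spot Avp probe at chr3:118110655-118110714 (minus strand). The single-spot Avp probe lies at chr3:118110779-118111063 (minus strand). The Oxt probe is 10176 bases from the nearest Avp probe. Both the Oxt probe and the single-spot Avp probe cover more genome than their 60 bases, by 84 and 225 bases. Capitals mark the bases at which those 2 probes match in their best ungapped alignment, and the 10-spot Avp probe is in lower case throughout.
Oxt: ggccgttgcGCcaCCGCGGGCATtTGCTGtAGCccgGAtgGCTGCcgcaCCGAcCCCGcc
Avp, single spot: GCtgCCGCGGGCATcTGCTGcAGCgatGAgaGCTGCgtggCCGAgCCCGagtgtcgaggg
Avp, 10 spots: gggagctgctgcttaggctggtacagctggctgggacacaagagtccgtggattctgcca
In that alignment 35 of 51 bases matched (68.6%), with a longest unbroken match of 10 bases. Against the 10-spot Avp probe, 16 of 35 aligned Oxt bases matched (45.7%), with a longest unbroken match of 3 bases. The 10-spot probe, which shares less sequence with the Oxt probe, stands for Avp in what follows, and the single-spot probe is given beside it. Only probes were aligned with each other, so whether either Avp probe binds Oxt RNA was not tested.

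Oxt spanned 11.09 units over the 8 arrays, the widest range of the 11 probes. Its levels were -3.35, -5.59, 5.51 and 0.29 on occlusion arrays 1 to 4 and -4.38, -4.86, 0.67 and 5.06 on control arrays 1 to 4. In signal units these are 158, 32.8, 65433 and 2703 against 89.6, 61, 3057 and 65006. Occlusion 3 and control 4 were the highest, occlusion 4 and control 3 lay between, and the other 4 arrays were lower. On occlusion 3 all 10 spots were saturated and on control 4, 4 of 10, so the order of these arrays cannot be read, while on occlusion 2 only 1 of 10 spots was well above background. Over the 7 arrays above background, occlusion 3 exceeded control 2 at least 1320-fold, a lower bound because the scanner's ceiling was reached.

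Avp, the precursor of vasopressin, was highest on the same 2 arrays. The 10-spot probe read -0.97, -1.84, 5.44 and 2.06 on the occlusion arrays and -1.38, -0.83, -0.57 and 5.06 on the controls. All 10 spots were saturated on occlusion 3 and on control 4, so their order cannot be read from it. The single-spot probe, saturated on occlusion 3 only, read -3.99, -5.22, 5.24 and -0.63 against -4.07, -3.13, -3.44 and 3.89. Occlusion 4 came next on both Avp probes. On control 3 Oxt was next after the 2 highest arrays, while Avp there was close to the other low arrays.

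**Figure D1:**
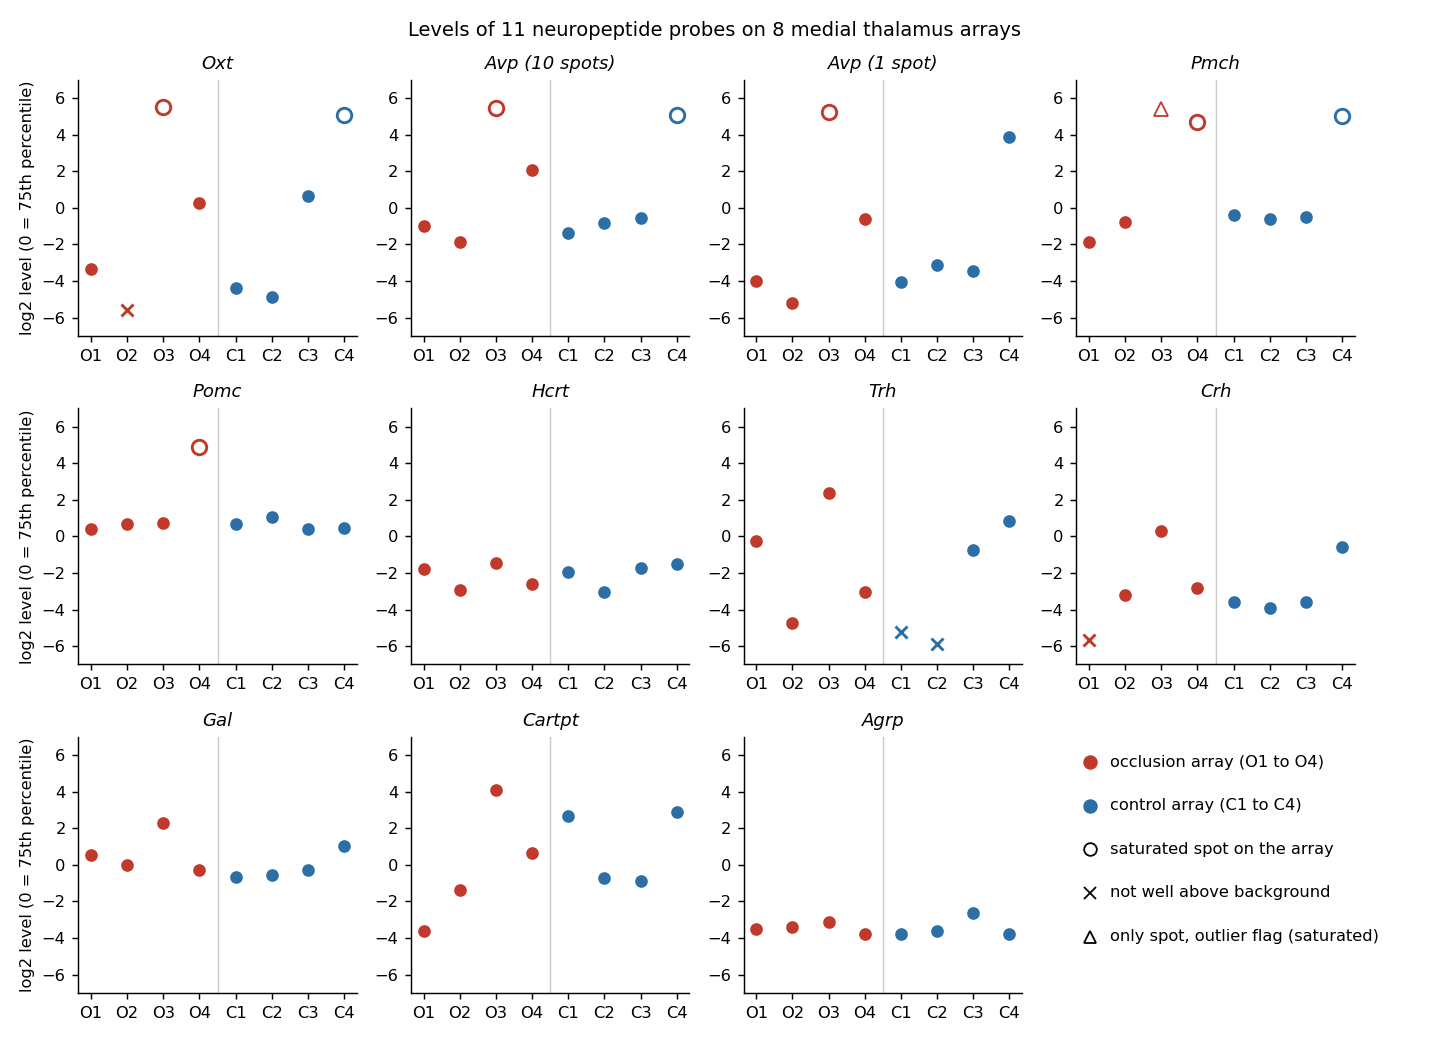
Log2 level of each of the 11 probes (vertical axis, 0 is the array's 75th percentile) on occlusion arrays O1 to O4 and control arrays C1 to C4, with open circles for saturated arrays, crosses for arrays not well above background and a triangle for a saturated spot that also carried an outlier flag. Oxt and Avp are at 3.89 or more on O3 and C4 alone, Pomc is at 4.88 on O4 and between 0.39 and 1.08 elsewhere, and Agrp stays between -3.79 and -2.63.

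Crh, the releasing hormone of the stress axis, was not saturated on any array. It read -5.66, -3.21, 0.31 and -2.83 on the occlusion arrays and -3.59, -3.90, -3.60 and -0.60 on the controls. Occlusion 3 and control 4 were again highest, and on occlusion 1 only 2 of 10 spots were well above background. Occlusion 3 exceeded control 2, the lowest array above background, 18.6-fold.

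Trh, the releasing hormone of the thyroid axis, is also a transcript of other forebrain neurons. Its single spot read -0.23, -4.71, 2.39 and -3.03 on the occlusion arrays and -5.25, -5.88, -0.74 and 0.85 on the controls. Control 1 and control 2 were not well above background. Occlusion 3 and control 4 led, with occlusion 1 and control 3 next, and occlusion 3 exceeded occlusion 2 138-fold.

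Pmch had 1 spot, which read -1.85, -0.78 and 4.68 on occlusion 1, 2 and 4 and -0.37, -0.59, -0.49 and 5.02 on the controls. On occlusion 3 the spot was saturated and carried an outlier flag, so it was dropped, and with it kept the level there was 5.40. Pmch was thus bright on 3 arrays, occlusion 3, occlusion 4 and control 4, and saturated on each. Control 4 exceeded occlusion 1 at least 117-fold.

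Hcrt, whose neurons lie beside the Pmch neurons, moved far less. It read -1.81, -2.92, -1.45 and -2.61 on the occlusion arrays and -1.95, -3.05, -1.71 and -1.53 on the controls. The 3 lowest arrays, occlusion 2, occlusion 4 and control 2, were all on slide 2, and the whole range was 3.03-fold. Hcrt was low on occlusion 4, where Pmch was saturated.

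Pomc was level on every array but 1. It read 0.39, 0.70, 0.75 and 4.88 on the occlusion arrays and 0.70, 1.08, 0.41 and 0.45 on the controls. On occlusion 4, 8 of 10 spots were saturated and the level was at least 13.9-fold above the next array, control 2. The Pomc probe, at chr6:26940572-26940631 (rn3, plus strand), is shown because it lies in the stretch that codes for beta-endorphin and so reads the precursor RNA whichever peptide a cell makes from it.
Pomc: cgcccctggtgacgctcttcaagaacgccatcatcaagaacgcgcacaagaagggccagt

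Agrp, made by arcuate neurons that oppose those of Pomc, read -3.51, -3.40, -3.15 and -3.79 on the occlusion arrays and -3.79, -3.61, -2.63 and -3.76 on the controls. Control 3 was highest, at a signal of 310 against 135 to 162 on the others. Neither occlusion 4 nor control 4 was raised. Agrp had 1 spot of low signal, and how well the Agrp and Hcrt probes respond to their RNA was not tested.

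Cartpt, a peptide of arcuate and many other neurons, read -3.64, -1.39, 4.06 and 0.63 on the occlusion arrays and 2.66, -0.72, -0.90 and 2.89 on the controls. Control 1, low for Oxt, Avp, Crh and Trh, came next, close to control 4. The range was 208-fold with no saturated spot.

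Gal, a peptide of hypothalamic and brain stem neurons, read 0.56, 0.01, 2.31 and -0.26 on the occlusion arrays and -0.68, -0.57, -0.29 and 1.04 on the controls. Occlusion 3 and control 4 led, and the range was 7.95-fold.

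**Figure D2:**
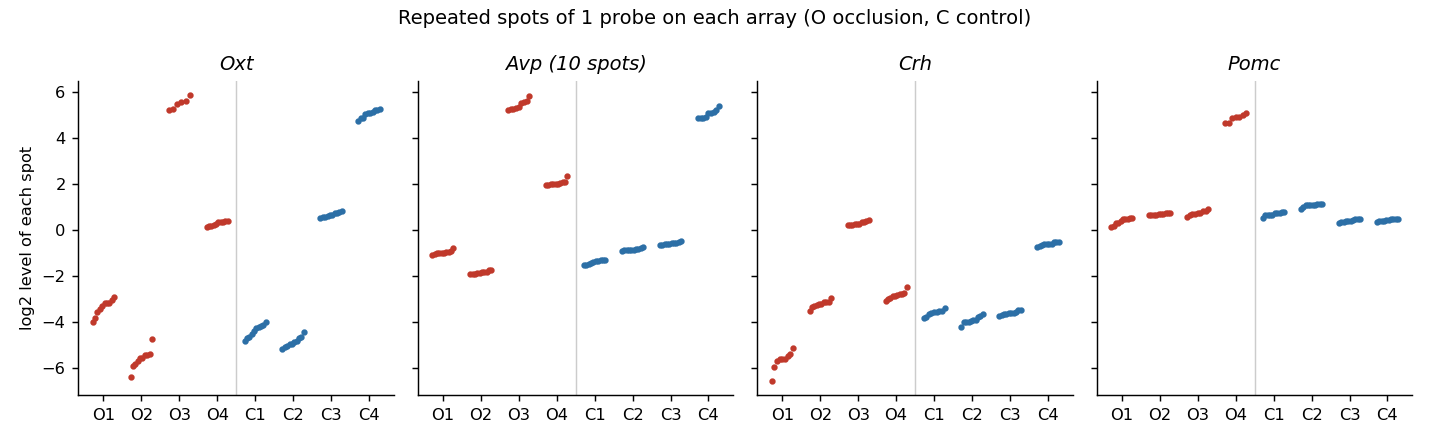
Log2 level of each repeated spot without an outlier flag (vertical axis) for the 10-spot probes of Oxt, Avp, Crh and Pomc on each array. The spots of an array lie close together beside the distance between arrays, with a spot SD of at most 0.42 (Oxt on occlusion 2). On the saturated arrays occlusion 3 and control 4 the SD is 0.24 and 0.18 for Oxt and 0.21 and 0.19 for Avp. For Oxt it is 0.10 on the unsaturated occlusion 4 and control 3. Pomc has 0.15 on occlusion 4, where it is saturated.

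Of the 9 genes with a value on every array, 7 had occlusion 3 and control 4 as their 2 highest arrays: Oxt, Avp, Hcrt, Trh, Crh, Gal and Cartpt. The lower of this pair led the next array by 4.38 units for Oxt, but by only 0.18 for Hcrt and 0.23 for Cartpt. Over all kept probes with a value on every array this pair was highest for 4.87%, and as the genes were chosen on these levels nothing is read from the count. Over those probes the highest array was occlusion 3 for 21.7%, control 3 for 17.7%, occlusion 1 for 16.1%, control 2 for 12.6% and occlusion 4 for 10.9%. It was occlusion 2 for 8.29%, control 1 for 6.59% and control 4 for 6.11%. Of these 26054 kept probes 4 (0.0154%) had both arrays at least 2 units above all others, and these were the Oxt probe, both Avp probes and Crh. A lead of at least 2 units on occlusion 4 was equally rare (0.0154%), and the named genes among those 4 kept probes were Pomc, Gh1 and Dapl1. Probes that did not pass the filter, Prl and Fshb among them, are outside this count. A range of at least 5 units held for 0.307% of probes and for 6 of the 10 genes, Pmch over 7 arrays among them. Crh counted only through occlusion 1, which was not well above background, and spanned 4.22 units over the other arrays.

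Occlusion and control arrays overlapped for all 10 genes, and no gene passed the test between the groups. In the fit over all probes (limma, Benjamini-Hochberg), 0 of 27154 probes had an adjusted p under 0.05 (0%), with 6.48% higher and 4.61% lower at an unadjusted p under 0.05. The groups did not overlap for 6.71% of probes, 3.9% higher and 2.82% lower on occlusion arrays. Of the 10 genes 6 were higher and 4 lower on occlusion arrays, with a median difference of 0.08 beside 0.02 over all kept probes. None had an unadjusted p under 0.05.

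The largest differences did not exceed the spread between arrays by this test. Trh was 1.36 higher on occlusion arrays (SE 1.94, adjusted p 0.826 by limma), with means of -1.39 ± 3.13 (SD, n = 4) and -2.75 ± 3.32. Cartpt was 1.07 lower, a difference of -1.07 (SE 1.65, adjusted p 0.842 by limma). Pomc differed by 1.02 (SE 0.92, adjusted p 0.702 by limma), and without occlusion 4 by -0.05. Gal differed by 0.78 (SE 0.60), with the smallest adjusted p of the 10 genes, 0.648 by limma.

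For Oxt the difference was 0.09 (SE 2.86), for Avp 0.61 (SE 1.90) on the 10-spot probe and 0.54 (SE 2.55) on the other, and for Crh 0.08 (SE 1.24). Pmch differed by -0.21 (SE 1.95, 3 against 4 arrays), Hcrt by -0.14 (SE 0.42) and Agrp by -0.01 (SE 0.27). For Oxt, Avp, Crh and Pmch the standard errors of 1.24 to 2.86 leave room for changes of several fold in either direction, so these values do not show that the groups were alike.

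The sign of the difference was not the same on both slides for 8 of the 10 genes. On slide 1 and slide 2 it was 0.74 and -0.56 for Oxt, 3.28 and -0.56 for Trh and -2.56 and 0.43 for Cartpt. For Pmch it was -4.18 and 2.49, but slide 1 then held only occlusion 1 in the occlusion group, and with the dropped spot of occlusion 3 kept the slide 1 value was -0.55. It kept its sign for Avp, at 0.40 and 0.82, and for Gal, at 1.25 and 0.31. With the slide as a block, Gal had an SE of 0.49 and an adjusted p of 0.493 by limma.

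Occlusion 3 and control 4 were also left out together, a setting chosen after seeing that they were highest for these genes, so that a smaller SE is no result. The differences were then -0.03 for Oxt (SE 1.97), 0.68 for the 10-spot Avp probe (SE 0.97) and -0.20 for Crh (SE 0.72). The SE was larger than with all arrays for Pomc (1.17), Hcrt (0.44) and Agrp (0.32). Gal then differed by 0.62 (SE 0.24, adjusted p 0.343 by limma) and Cartpt by -1.81 (SE 1.36). Leaving out 1 array at a time turned the sign for 8 of the 10 genes. Without occlusion 3 alone Oxt differed by -2.01, and without control 4 alone by 2.07.

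**Figure D3:**
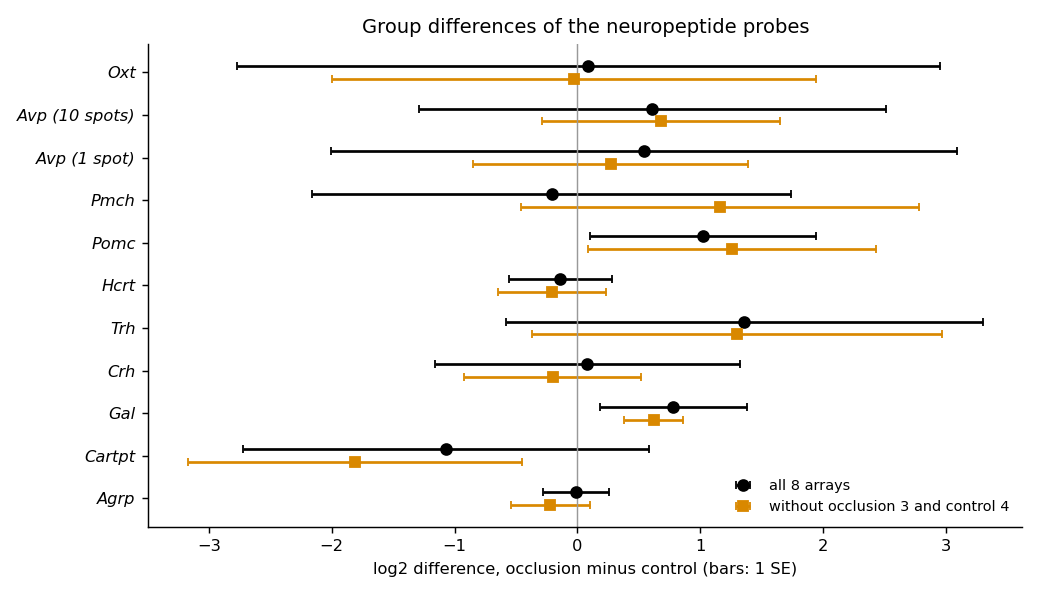
Log2 difference, occlusion minus control, with its SE (horizontal axis, bars of 1 SE) for the 11 probes from all 8 arrays (circles) and without occlusion 3 and control 4 (squares). Most bars cross 0, and those of Oxt and the single-spot Avp probe are widest with all arrays.

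Markers of neighbouring tissue did not follow the peptides uniformly. The 13 kept genes of a hypothalamic list, transcription factors and regional genes, had a summed linear level of 7.87 on occlusion 3 and 5.28 on control 4, but 6.45 on control 3, where Avp and Crh were low, and 2.78 to 3.91 on the others. Occlusion 3 was highest for 6 of the 13 and control 4 for 1, and the pair was highest for 1. The filter asks for 4 or more arrays above background, so this count leaves out genes seen on the pair alone. The median deviation of a gene from its own median array was 0.33 on occlusion 3 and -0.05 on control 4, so the sum on control 4 does not stand for most of the list. Calcr, at 1.26 on occlusion 3, 0.23 on control 4 and 1.75 on control 3, and Th, at 0.89, 0.43 and -4.30, were bright members there, named after their values were seen. The list held 24 genes, 21 of them on the array, and the paraventricular factor Sim1, along with Nr5a1, Lhx6 and Irs4, stayed at background on all arrays. Neither probe of Otp, another factor of these neurons, passed the filter. One of them was highest on occlusion 3 (-4.54) and control 4 (-4.98), with control 2 close at -5.10. The other was highest on occlusion 3 (-4.84), with occlusion 1 next. Slc6a3 and Hmx2, well above background on 2 arrays each, also failed the filter. They too were highest on this pair, at -3.36 and -5.22 on occlusion 3 and -3.98 and -4.39 on control 4. Lhx8, also not kept, was highest on control 3.

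Habenula markers were low on both arrays, and on control 3. The mean level of the 9 kept genes was -3.48 on occlusion 3, -2.53 on control 4 and -3.85 on control 3, against -1.16 to 0.23 on the other 5. GABA neuron markers, which include the reticular thalamus and zona incerta, had a mean of 0.97 on control 3 and -3.50 to -0.82 elsewhere. The relay markers had means of 0.27 on occlusion 3 and 0.28 on control 4, inside the range of the other arrays. The part of these markers in the peptide levels was not tested.

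**Figure D4:**
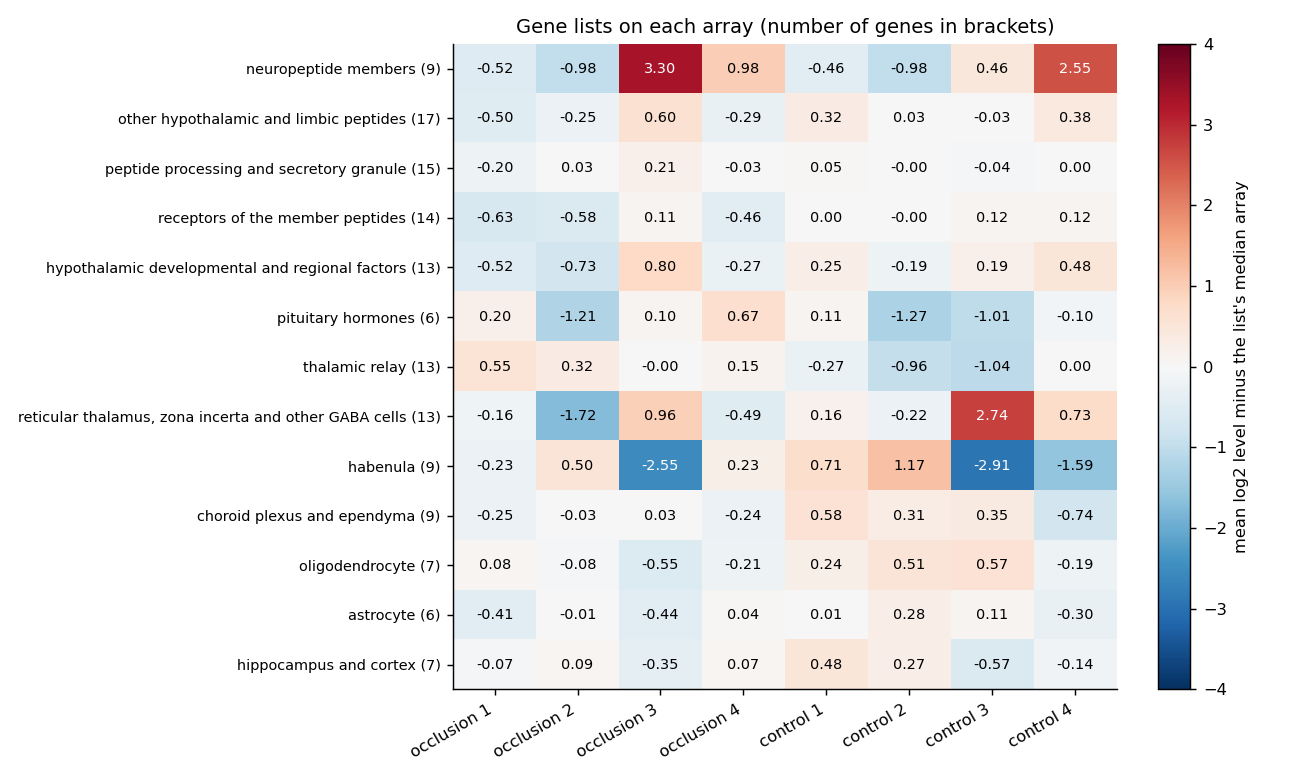
Mean log2 level of each gene list on each array, less the list's median array (colour and printed value), with the number of genes in brackets. The neuropeptide row is 3.30 on occlusion 3 and 2.55 on control 4, where the habenula row is -2.55 and -1.59, and control 3 has the lowest habenula value, -2.91, with a neuropeptide value of 0.46.

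On occlusion 4, the array with the Pomc peak, some hormone genes of the anterior pituitary were also high and others were not. Prl, prolactin, read 3.70 there and -7.76 to -5.16 elsewhere, where it was above background on 1 other array. Gh1, growth hormone, read 2.98 there and -5.89 to -3.63 elsewhere. Fshb and the pituitary factor Pou1f1 were above background on occlusion 4 only, at -3.47 and -4.39. Of the 10 pituitary genes 6 passed the filter, and their summed linear level was 8.73 on occlusion 4 and 0.496 to 0.871 on the others, nearly all of it Gh1. The median deviation of a gene from its own median array was -0.22 on occlusion 4. Tshb read -4.69 there and -6.17 to -3.20 elsewhere, and Ghrhr, at -5.77, was lowest there. Lhb read -0.72 on occlusion 4 and at most -1.07 elsewhere on its brighter probe, but -3.82 and at most -3.18 on the other. Tbx19, the factor of pituitary Pomc cells, read -5.27 on occlusion 4 and -6.08 to -4.48 elsewhere. The shared hormone subunit Cga read -2.39 on occlusion 4 and at most -4.87 elsewhere on 1 probe, but -2.96 on occlusion 4 and -4.61 to -2.27 elsewhere on its brighter probe. Oxt on occlusion 4 was 0.29, far below occlusion 3. The part of pituitary RNA in the Pomc level was not tested.

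**Figure D5:**
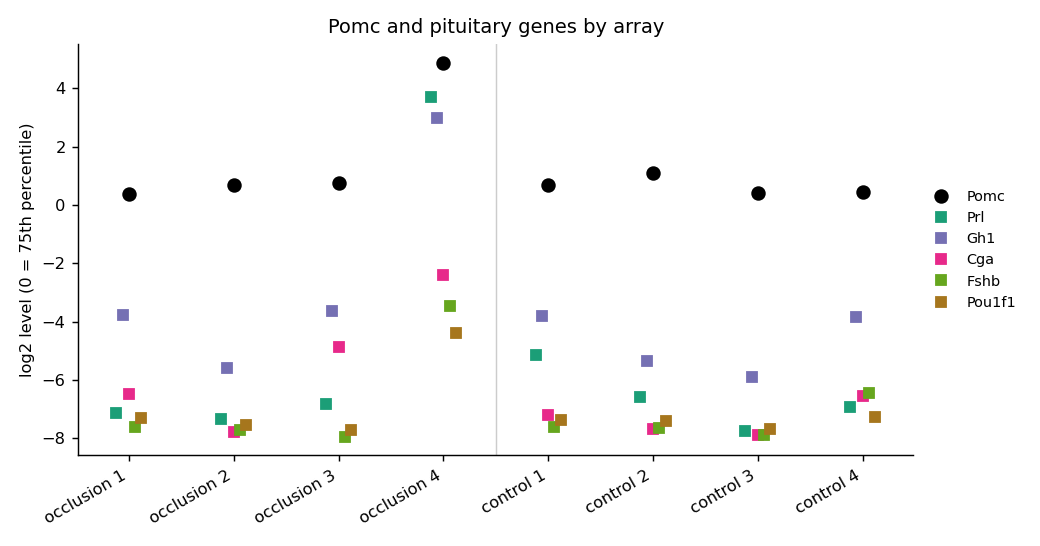
Log2 level (vertical axis) of Pomc and of 5 pituitary genes on each array, with the dimmer of the 2 Cga probes shown. On occlusion 4 Pomc is at 4.88, Prl at 3.70 and Gh1 at 2.98, while Prl, Fshb and Pou1f1 elsewhere are mostly not above background and the brighter Cga probe, not drawn, has no such peak.

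Genes that process and store peptides were mostly bright. All 17 of the list were kept, 11 higher and 6 lower on occlusion arrays with a median difference of 0.10, and 7 had a saturated array. The mean level of the 15 with a value on every array ran from 2.22 to 2.63, a mean that holds saturated genes. Single genes varied more, such as Slc18a2, the vesicular monoamine transporter, from -4.74 on occlusion 1 to 0.96 on control 3. The convertase Pcsk2 was at 1.83 ± 0.15 (SD, n = 4) after occlusion and 1.15 ± 0.50 in controls, a difference of 0.68 (SE 0.24, adjusted p 0.403 by limma). Ptprn, of the granule membrane, differed by 0.26 (SE 0.15), and the granins Chga and Scg3 by -0.32 (SE 0.21) and -0.29 (SE 0.18). None of the 17 passed the test. Cell type markers also shifted between the groups. All 13 thalamic relay markers were higher on occlusion arrays (median 0.70), 7 at an unadjusted p under 0.05, beside 6.48% of all kept probes. Of 13 GABA neuron markers 12 were lower (median -0.81), 5 at an unadjusted p under 0.05, beside 4.61% of all kept probes. None of these markers passed the adjusted test, and their part in the differences of Pcsk2 and of the receptors that follow was not tested.

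Of 19 receptors and binding proteins for these peptides, 18 were on the array and 14 were kept, 4 higher and 10 lower, with a median of -0.18. None passed the adjusted test, and 3 were lower at an unadjusted p under 0.05, beside 4.61% of all kept probes. Crhbp, which binds and holds Crh, was at -3.50 ± 0.71 (SD, n = 4) after occlusion and -1.35 ± 0.94 in controls, a difference of -2.15 (SE 0.51, adjusted p 0.403 by limma). The melanocortin receptor Mc4r differed by -2.21 (SE 0.65) and was well above background on 5 arrays. Avpr1a, a vasopressin receptor, differed by -1.02 (SE 0.34). Avpr2 and the melanin-concentrating hormone receptor Mchr1 were at the other end, at 0.42 (SE 0.39) and 0.34 (SE 0.22). Oxtr, the oxytocin receptor, stayed at background on all arrays, including the 2 where Oxt was saturated.

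Other hypothalamic and limbic peptides were mostly lower on occlusion arrays, but the 1 gene with an unadjusted p under 0.05, Cck, was higher. Of 25, 22 were on the array and 18 kept, 3 higher and 15 lower with a median of -0.45, and none passed the adjusted test. Occlusion 3 and control 4 were the highest pair for 4 of the 17 with all values. Vip differed by 1.80 (SE 0.82) and Cck, saturated on 5 arrays, by 1.36 (SE 0.53), while Npy and Npb differed by -0.56 (SE 0.25) and -0.50 (SE 0.32).

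The genes whose levels followed each peptide most closely over the arrays were listed by Pearson's r among up to 13012 genes. This is a description over 8 arrays that share slides and tissue. Only genes with a value on every array and no saturated spot were compared, which left out Oxt, Avp, Pmch and Pomc. Oxt and the 10-spot Avp probe correlated with each other at 0.937. For Oxt the closest compared genes were Sipa1 (r = 0.964), Hebp1 and Kcnk13 (0.934 each). For the 10-spot Avp probe they were Exoc7 (0.965), Hk1 and Thoc5. These had small ranges, 0.25 for Sipa1 and 0.10 for Thoc5, beside 11.09 for Oxt. For Crh they were Gpm6a (0.957), Rbfox2 and Pelp1, and for Trh Hdgfl3 (0.988), Grik1 and LOC684425. For Pomc they were Tm9sf2 (0.965), Minpp1 and Zfp174, and for Pmch, over 7 arrays, Exoc7 (0.967), Ica1l and LOC501248. For Hcrt they were Efnb3 (0.98), Dlx1 and Prag1, and for Gal Pdgfa (0.989), Gimap5 and Klhdc9. For Cartpt they were LOC682386 (0.982), Gyg1 and Sf3a2, and for Agrp Kif5c (0.968), Surf4 and Slc8a1. Dlx1, a factor of GABA neurons, was the only one of these from the marker lists.

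Because Oxt and Avp were high on the same arrays, the 250 bases before each gene's start (RefSeq, GRCr8) were compared for GGTCA, the core of sites bound by nuclear receptors, counted on both strands as GGTCA or TGACC. Matches are in capitals.
Oxt, chr3:138235504-138235753, plus strand: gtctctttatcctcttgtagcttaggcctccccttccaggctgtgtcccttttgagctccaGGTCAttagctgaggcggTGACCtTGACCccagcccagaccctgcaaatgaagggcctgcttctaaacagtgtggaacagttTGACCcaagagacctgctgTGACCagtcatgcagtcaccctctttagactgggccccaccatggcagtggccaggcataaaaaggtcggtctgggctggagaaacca
Avp, chr3:138248523-138248772, minus strand: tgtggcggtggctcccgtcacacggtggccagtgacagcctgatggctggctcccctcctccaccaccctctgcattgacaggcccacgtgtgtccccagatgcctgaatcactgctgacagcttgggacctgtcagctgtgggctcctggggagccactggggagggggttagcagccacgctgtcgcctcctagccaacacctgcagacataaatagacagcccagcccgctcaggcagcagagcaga
The Oxt window held 5 matches and the Avp window 0. Of the 8 genes with a window in the table, 5 held a match, as did 35.4% of 33469 promoters of the same length, and 0.0508% held as many as Oxt. The genes that peaked on the same 2 arrays thus differed in this motif, which is a description of the letters only.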

How the data were processed

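Scans were read by the authors with Feature Extraction 9.5.1.1 from Agilent (per the file headers), giving a background-subtracted processed intensity for every spot, linear and not normalised between arrays, with the flags used here. The design text speaks of a reference design, but each deposited file holds 1 channel. Control spots and outlier spots were left out, log2 intensity was set relative to each array's 75th percentile over non-control spots, and spots of a probe were averaged. Saturated spots kept their value. Kept probes had at least 50% of their spots well above background on 4 or more arrays, with at least 2 values per group. Groups were compared with limma 3.58.1 in R 4.3.3 (lmFit and eBayes, a two-sided test, with Benjamini-Hochberg adjustment over the kept probes), tested first on simulated data. P-values measure the spread between 4 arrays per group, which limits the precision. Replicate numbers were not taken as pairs in the main fit. The deviations of same-numbered arrays correlated at 0.355, 0.514, -0.0715 and -0.293. Numbers 1 and 2 shared a slide across the groups and numbers 3 and 4 did not, so these values cannot tell pairing from slide. Probes were named by accession, symbol or synonym through a RefSeq table (GRCr8). Probe positions are those in the files (rn3), with no annotation of exons. The genes and lists were chosen with earlier results of these data known. In each list other than markers, the 2 genes at either end of the moderated statistic are named, and Avpr1a was added after its values were seen. Per gene, the 3 genes of highest r among those without a saturated spot are named. Alternatives included other scaling, background correction, filters, slide and replicate blocks, and leaving out arrays.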

Additional observations from a re-analysis of the deposited data

Results flagged for a closer look

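In 6 of 21 groups of 4 arrays, a single array stood apart from the other members of its group by Dixon's gap over the range. Chance flags about 1 group in 20 where genes are not chosen by level, but these were chosen for such levels and several are saturated, so the count is a description and no test. On control 4 the 10-spot Avp probe was at 5.06 (next control -0.57), the single-spot Avp probe at 3.89 (next -3.13), Pmch at 5.02 (next -0.37) and Crh at -0.60 (next -3.59). Pomc on occlusion 4 was at 4.88, with the next occlusion array at 0.75. Agrp on control 3 was at -2.63, with the next control at -3.61.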

How the results depend on the processing

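No probe passed in the main fit or in 22 of 23 alternatives, and normexp background correction gave 1 (smallest adjusted p 0.0478 by limma). The smallest adjusted p over the alternatives ran from 0.0478 to 0.711. With the replicate block 0 probes passed, as with the slide block. The SE with the replicate block was 1.49 for Oxt (2.86 in the main fit) and 0.31 for Pmch (1.95). Pmch then differed by -0.67, with no value on occlusion 3 and saturated spots on both occlusion 4 and control 4, so its small SE is not read. The SE was larger than in the main fit only for Gal (0.62 beside 0.60) and Cartpt (1.75 beside 1.65). No neuropeptide gene passed in any setting. Of 250 differences under the alternatives, 45 had the opposite sign to the main value, and the cause was not tested. Agrp was 0.01 under quantile normalisation and median scaling. On slide 1 alone Pomc was -0.01, Hcrt 0.11, Crh -0.58 and Agrp 0.45, and on slide 2 alone Oxt -0.56, Pmch 2.49, Trh -0.56 and Cartpt 0.43. With array weights Oxt was -0.02, the single-spot Avp probe -0.11, Crh -0.29 and Agrp 0.20. With outlier spots kept Pmch was 0.97. Leaving out several arrays together was chosen after seeing the data, as was slide 1 with outlier spots kept for Pmch. Without occlusion 3 and control 4, Oxt was -0.03, Pmch 1.16 and Crh -0.20. Without these and occlusion 4, Oxt was -1.62, Avp -0.47 and -1.06 on its probes, Pomc -0.18 and Crh -0.74. Leaving out each array in turn gave -2.01 to 2.07 for Oxt, -0.82 to 2.10 and -1.59 to 2.40 for Avp, -2.21 to 1.16 for Pmch, -0.05 to 1.45 for Pomc, -0.47 to 0.10 for Hcrt and 0.10 to 2.56 for Trh. It gave -0.98 to 1.02 for Crh, 0.23 to 1.17 for Gal, -2.45 to 0.12 for Cartpt and -0.13 to 0.26 for Agrp. Saturated levels are lower bounds, which limits the differences of Oxt, Avp, Pmch and Pomc.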
